A study of Mus musculus with 4 samples.

Results

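The angiopoietin, TIE and VEGF genes were described in sorted LSK cells of mouse bone marrow, which lack lineage markers, carry Sca-1 and c-Kit and include the hematopoietic stem cells. The set has 10 genes: the ligands Angpt1, Angpt2, Vegfa and Vegfb, the receptors Tie1, Tek, Kdr and Flt1, and the surface proteins Emcn and Eng. Its members are the array probes that carry 1 of these gene names in the deposited scanner files, 14 probes on 24 spots, of 55681 probes on 59305 spots and 34650 gene and transcript names in all. Angpt1, Tie1 and Vegfa were selected on large differences of their measured signal on the JAK2V617F array, so their values there are a description.

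Fetal liver cells of E14.5 embryos on a C57B6 background were transplanted into lethally irradiated mice, and LSK cells of the recipients were profiled on 4 arrays, 1 per genotype. The TET2KD array came from recipients of cells in which TET2, a methylcytosine dioxygenase, was knocked down, collected 10 weeks after transplantation. The JAK2V617F array came from recipients of cells that carried the mutant kinase of myeloproliferative neoplasms as a transgene, at 16 weeks, and the double mutant array from cells with both lesions, at 13 weeks. The WT array, from cells with neither lesion, was at 16 weeks, so a time was shared by JAK2V617F and WT alone. The design gives 5 mice per genotype and 1 array each. Whether the mice were pooled, the promoter of the transgene and the method of the knock-down are not given in the sources used here.

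Angiopoietins are secreted ligands of the receptor tyrosine kinase TIE2, encoded by Tek. ANGPT1 activates it, ANGPT2 can block or activate it depending on the setting, and TIE1 is a related receptor that pairs with TIE2 and has no angiopoietin as a high-affinity ligand of its own. In mouse marrow, ANGPT1 and TIE2 are known for keeping stem cells quiescent in the niche. VEGFA acts through the receptors encoded by Kdr and Flt1, VEGFB binds the Flt1 product, and hypoxia-inducible factors raise VEGFA transcription. Endomucin (Emcn) is a sialomucin of endothelial and stem cells, and endoglin (Eng) is a co-receptor for BMP and TGF-beta ligands on both.

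The largest differences from WT in the set were seen on the probes for Tie1, Angpt1 and Vegfa. Each 60-base probe reads 1 stretch of a transcript, so the sequences are shown first. The Tie1 probe (mm9, chr4:118144132-118144191, minus strand) and the Tek probe (chr4:94540624-94540683, plus strand) read related receptors, and 39 of 57 bases match (68.4%) when the probes are aligned without gaps. The longest run of shared bases is 8. Capitals mark the shared bases.
Tie1: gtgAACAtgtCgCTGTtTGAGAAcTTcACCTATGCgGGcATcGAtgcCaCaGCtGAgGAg
Tek: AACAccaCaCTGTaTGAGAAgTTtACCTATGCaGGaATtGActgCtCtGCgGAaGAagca

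The Angpt1 probe lies at chr15:42256335-42256394 on the minus strand (mm9). Vegfa has a pair of probes on the minus strand of chromosome 17, and they are kept apart below because they differ between the arrays. They are called upstream and downstream by their order in the gene, and the downstream probe starts at base 3026 of its transcript (chr17:46154387-46154446). The first 30 bases are shown for Angpt1 and for the downstream Vegfa probe. The files give no exon or untranslated region for a probe.
Angpt1: catgtgtgtagcaatttgatacgcatagct
Vegfa downstream: cagatcggtgacagtcactagcttgtcctg

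Values are relative signals, meaning the processed signal divided by the 75th percentile of the same array, and the ± is the scanner software's own error for the spot. That error covers neither amplification, sorting nor mice, and a comparison of 2 arrays has neither a replicate error nor a test. A probe counts as measured on an array where the scanner software called it well above background. Of the 14 probes, 10 were measured on at least 1 array and 4 on none. Those on none were the 3 Flt1 probes and 1 of the 2 Kdr probes. A difference of at least 2-fold is called higher or lower, and where 1 side was not well above background the fold is a lower bound against the dimmest measured probe of that array. In bulk RNA, fewer cells of a type and less RNA per cell cannot be told apart.

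**Figure D1:**
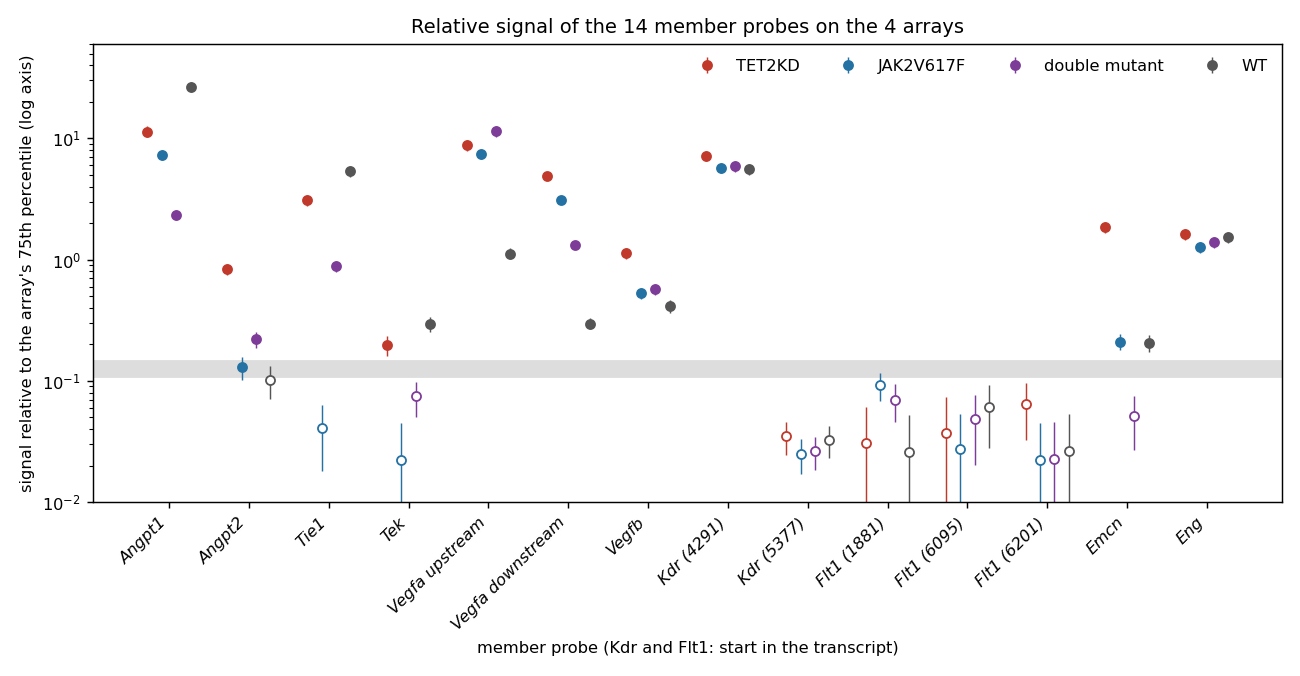
Relative signal (signal over the array's 75th percentile, log axis) of the 14 probes on the TET2KD, JAK2V617F, double mutant and WT arrays. Filled points were well above background and open points were not; bars are the scanner software's error, and the grey band spans the lowest measured signals of the 4 arrays. Angpt1 and Tie1 are highest on the WT array and both Vegfa probes are lowest there.

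Among the ligands, Angpt1 had a relative signal of 11.4 ± 1.14 on the TET2KD array, 7.31 ± 0.73 on the JAK2V617F array, 2.34 ± 0.235 on the double mutant array and 26.7 ± 2.67 on the WT array. All 3 mutant arrays lay below WT, and the double mutant was the lowest. Against WT, Angpt1 was 2.35-fold lower in TET2KD, 3.65-fold lower in JAK2V617F and 11.4-fold lower in the double mutant. The double mutant was also 4.87-fold below TET2KD and 3.12-fold below JAK2V617F. Each of these gaps exceeds the scanner error of the difference, which was 0.20 on the log2 scale. Large gaps were common among all compared probes, however. On the TET2KD array, 13.6% of them lay as far below WT as Angpt1. That share was 6.48% for the JAK2V617F array and 0.911% for the array with both lesions. The gaps of the double mutant to TET2KD and to JAK2V617F were matched by 4.37% and 6.35% of compared probes.

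Angpt2 was brightest on the TET2KD array. Its relative signal was 0.834 ± 0.0901 in TET2KD and 0.130 ± 0.028 in JAK2V617F. It reached 0.222 ± 0.0337 with both lesions, and in WT it was not well above background at 0.102 ± 0.031. TET2KD was at least 6.72-fold above WT, 2.75 on the log2 scale, which was 1.12 with normexp background correction. The JAK2V617F and double mutant arrays were at least 1.05-fold and 1.79-fold above it, short of 2-fold. The double mutant was 3.76-fold below TET2KD. Angpt1 and Angpt2, which share the receptor TIE2, differed from WT in opposite directions on the TET2KD array.

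The upstream Vegfa probe had a relative signal of 8.76 ± 0.88 in TET2KD, 7.48 ± 0.748 in JAK2V617F, 11.5 ± 1.15 in the double mutant and 1.12 ± 0.116 in WT. It was 7.81-fold, 6.67-fold and 10.3-fold higher than WT in TET2KD, JAK2V617F and the double mutant. The 3 mutant arrays lay close together, and the double mutant was 1.31-fold above TET2KD and 1.54-fold above JAK2V617F.

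The downstream Vegfa probe, with 2 spots per array, also lay above WT on all 3 mutant arrays but placed the double mutant differently. Its relative signal was 4.86 ± 0.345 in TET2KD, 3.09 ± 0.219 in JAK2V617F, 1.33 ± 0.0961 in the double mutant and 0.297 ± 0.0306 in WT. The 2 spots read 4.82 and 4.91 in TET2KD, 3.0 and 3.18 in JAK2V617F, 1.26 and 1.41 in the double mutant, and 0.281 and 0.315 in WT, so no spot of 1 array overlapped those of another. TET2KD was 16.4-fold above WT, JAK2V617F 10.4-fold and the double mutant 4.48-fold. These log2 differences of 4.03, 3.38 and 2.16 were 2.71, 2.16 and 1.18 with normexp correction. Here the double mutant was 3.65-fold below TET2KD and 2.32-fold below JAK2V617F, whereas the upstream probe put it above both.

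Vegfb, a ligand for the Flt1 receptor, had a relative signal of 1.13 ± 0.117 in TET2KD, 0.530 ± 0.0579 in JAK2V617F, 0.570 ± 0.0617 in the double mutant and 0.412 ± 0.0494 in WT. It was 2.73-fold above WT in TET2KD, a log2 difference of 1.45 that was 0.82 with normexp correction, short of 2-fold. The folds of 1.29 in JAK2V617F and 1.38 in the double mutant did not reach the threshold. The double mutant lay 1.98-fold below TET2KD, just short of it.

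Of the TIE receptors, Tie1 had a relative signal of 3.1 ± 0.312 in TET2KD, was not well above background in JAK2V617F (0.0409 ± 0.0227), and reached 0.887 ± 0.0916 in the double mutant and 5.36 ± 0.537 in WT. The JAK2V617F array was at least 49.8-fold below WT, a log2 difference of -5.64 that was -3.50 with normexp correction. The double mutant was 6.05-fold lower than WT and TET2KD 1.73-fold lower, the last short of 2-fold. The double mutant signal was at least 8.24-fold higher than that of JAK2V617F, a log2 difference of 3.04 that was 1.37 with normexp correction, and 3.50-fold lower than that of TET2KD.

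Tek, the angiopoietin receptor, was dim on every array. Its relative signal was 0.196 ± 0.0366 in TET2KD. It was not well above background in JAK2V617F (0.0225 ± 0.0226) or in the double mutant (0.0745 ± 0.0242), against 0.295 ± 0.0401 in WT. The 2 arrays with JAK2V617F were at least 2.74-fold and 2.70-fold below WT, and TET2KD was 1.5-fold below it. With normexp background correction these 2 differences were smaller than 2-fold, at -0.51 and -0.56 on the log2 scale.

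The VEGF receptors gave little. Kdr, the main VEGFA receptor, was read by a probe at base 4291 of its transcript (chr5:76330395-76330454, minus strand) with relative signals of 7.18 ± 0.719 in TET2KD, 5.73 ± 0.574 in JAK2V617F, 5.90 ± 0.59 in the double mutant and 5.55 ± 0.556 in WT. The 3 mutant arrays were within 1.29-fold of WT. The other Kdr probe, 1086 bases away in the genome (chr5:76329309-76329368) and printed on 10 spots, had 0 of 10 spots well above background on each of the 4 arrays, with relative signals between 0.0221 and 0.0865. These probes disagree on whether Kdr RNA was detected, so a level of Kdr in LSK cells cannot be stated from them. The bright probe and the first 30 bases of the dark one are shown because of that disagreement.
Kdr at base 4291: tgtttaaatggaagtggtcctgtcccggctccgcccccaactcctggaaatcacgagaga
Kdr at base 5377: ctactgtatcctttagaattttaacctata

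The 3 Flt1 probes, at bases 1881, 6095 and 6201 of 3 transcript models, were below background on all 4 arrays, with relative signals between 0.0224 and 0.0924. For Flt1, the receptor shared by VEGFA and VEGFB, no difference could be measured.

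Of the surface proteins, Emcn had a relative signal of 1.86 ± 0.189 in TET2KD, 0.211 ± 0.0314 in JAK2V617F, was not well above background in the double mutant (0.0509 ± 0.024), and had 0.206 ± 0.0341 in WT. TET2KD stood alone, 9.04-fold above WT, a log2 difference of 3.18 that was 1.78 with normexp correction, while JAK2V617F was within 1.02-fold of WT. The double mutant was at least 17.0-fold below TET2KD, and 0.450% of compared probes lay as far below. That log2 difference of -4.09 was -2.14 with normexp correction. Against WT it was at least 1.88-fold lower and against JAK2V617F at least 1.93-fold lower, both short of the threshold.

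Eng varied little between the arrays. Its relative signal was 1.62 ± 0.166 in TET2KD, 1.26 ± 0.129 in JAK2V617F, 1.39 ± 0.142 in the double mutant and 1.54 ± 0.157 in WT. On the log2 scale TET2KD differed from WT by 0.07, JAK2V617F by -0.29 and the double mutant by -0.14, against a scanner error of 0.21 for each.

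**Figure D2:**
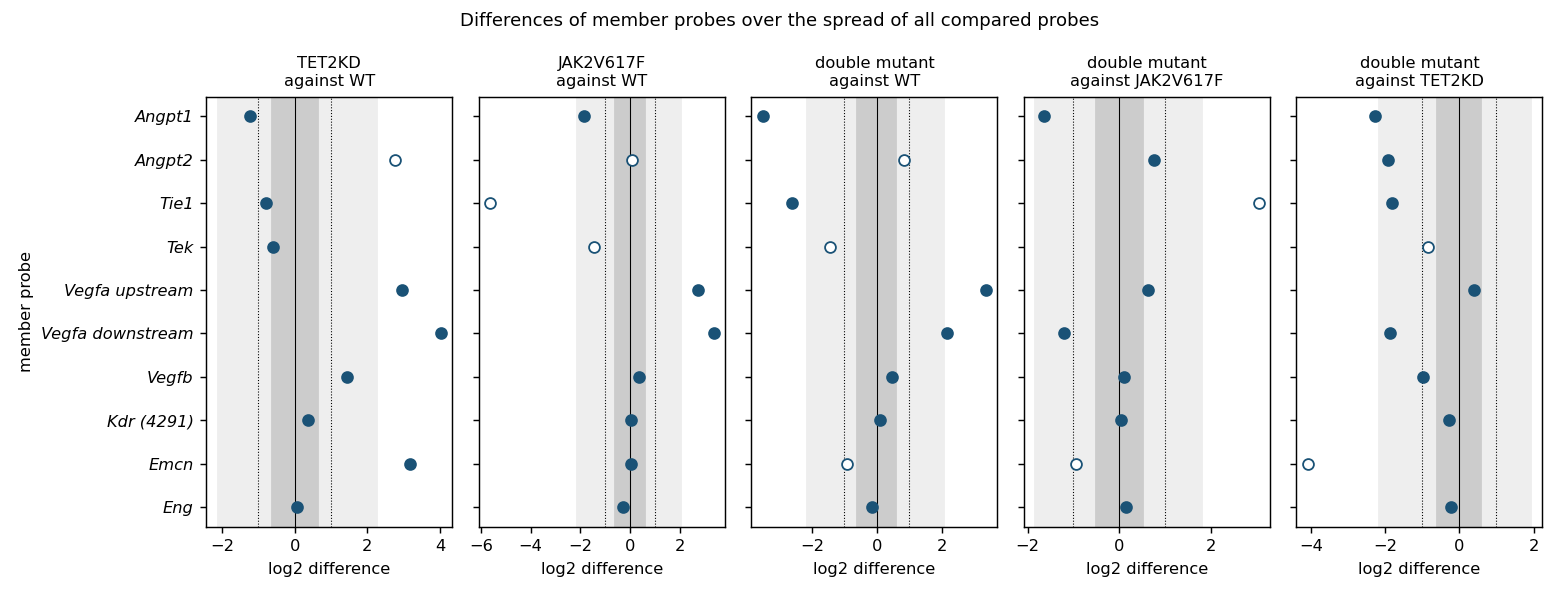
Log2 difference of each of the 10 measured probes in the 5 comparisons. Dark grey spans the middle 50% of all compared probes, light grey the middle 90%, and dotted lines mark 2-fold; open points rest on a side not well above background. Tie1 in JAK2V617F against WT, at -5.64, lies farthest out.

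Counted over the set, 5 of 10 compared probes were higher and 1 was lower in TET2KD than in WT, against 17.6% and 17.0% of all compared probes. The higher ones were Angpt2, both Vegfa probes, Vegfb and Emcn, and the lower one was Angpt1. In JAK2V617F, 2 probes were higher and 3 lower than in WT, against 16.1% and 16.4% of all probes, a comparison that the choice of Angpt1, Tie1 and Vegfa had used. In the double mutant the counts were 2 higher and 3 lower than in WT, against 16.3% and 16.8%, with the same probes as in JAK2V617F: Vegfa higher, and Angpt1, Tie1 and Tek lower. Apart from Tek these are probes of the chosen genes. The double mutant carries JAK2V617F and is set against the same WT array, so this count is not independent of that choice. These 3 comparisons share the WT array, so a high or low WT value shifts all of them.

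Between the double mutant and the single mutants, 1 of 9 compared probes was higher than in JAK2V617F (Tie1) and 2 were lower (Angpt1 and the downstream Vegfa probe), against 13.4% and 13.7% of all probes. Tie1, Angpt1 and Vegfa are the chosen genes, and their choice had used the JAK2V617F array. Set against TET2KD, 0 of 10 were higher and 5 were lower in the double mutant, against 15.6% and 16.9%. Those 5 were Angpt1, Angpt2, Tie1, the downstream Vegfa probe and Emcn. The median log2 difference of the 10 probes was -1.39 there, against 0.00 over all 32893 compared probes. Angpt1, Tie1 and the downstream Vegfa probe again belong to the chosen genes. The double mutant carries JAK2V617F, so this count and median are not independent of their choice.

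Grouping the arrays by lesion, 4 of the 10 measured probes (Angpt1, Tie1, Tek and Eng) were lower on both arrays with JAK2V617F than on both arrays without it, against 15.0% of all 37213 measured probes, and 0 were higher, against 15.4%. For Angpt1 and Tie1 this direction was part of the choice of the set. Likewise, 4 probes (Angpt2, the upstream Vegfa probe, Vegfb and Kdr at base 4291) were higher on both arrays with the TET2 knock-down than on both without it, against 12.5%, and 0 were lower, against 13.1%. The gaps for Eng, Kdr and Vegfb in these groupings are smaller than the scanner error of a difference. For Vegfb, the double mutant lay 0.10 above JAK2V617F on the log2 scale, against a scanner error of 0.22.

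The double mutant was then set against the sum of the single-lesion log2 differences. Angpt1 came close to that sum, at -3.51 in the double mutant against a sum of -3.1, a gap of -0.41. Eng and Kdr were closer, within 0.33 of their sums. Tie1 was at -2.60 against a sum of -6.43, a gap of 3.83. Vegfa fell short of the sum on both probes. The upstream probe had 3.36 against 5.70, and the downstream probe 2.16 against 7.41, a gap of -5.25. For Angpt1, Tie1 and Vegfa the sum holds the JAK2V617F difference for which they were chosen, so their gaps are a description. Emcn had the opposite sign to its sum, with -0.91 against 3.21, a gap of -4.12. Of all 37213 measured probes, 2.24% had a gap at least as large as that of Emcn, 2.98% as that of Tie1 and 70.1% as that of Angpt1. For the upstream and downstream Vegfa probes these shares were 12.9% and 0.707%. The WT value enters both single-lesion differences, so a high or low WT value alone shifts each gap. The values of Tie1, Tek, Angpt2 and Emcn rest on the floor for at least 1 array. Additivity was not tested, since each genotype has 1 array.

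**Figure D3:**
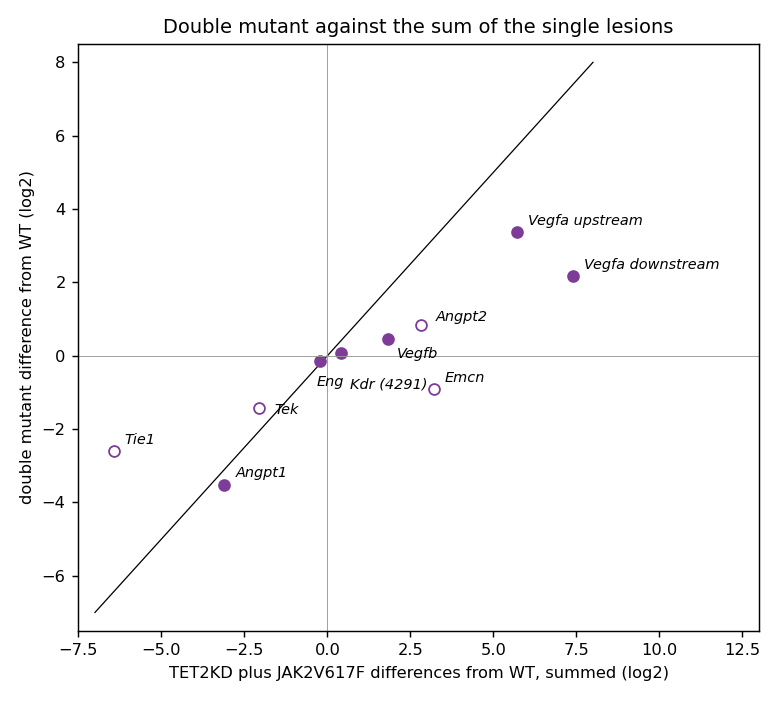
Difference of the double mutant from WT against the sum of the TET2KD and JAK2V617F differences from WT (both log2) for the 10 measured probes. The line marks equality and open points rest on a side not well above background. Angpt1, Eng and Kdr lie near the line, Tie1 above it, and Vegfa and Emcn below it.

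A single probe is a narrow base for a gene, as the Vegfa and Kdr pairs show. Over all genes with 2 compared probes at least 500 bases apart in the genome and at least 1 of them 2-fold from WT, both probes had the same direction in 52.3% of 1587 pairs for TET2KD, 53.9% of 1593 for JAK2V617F and 54.6% of 1567 for the double mutant. Both were 2-fold in that direction in 15.1%, 15.4% and 15.4%. Angpt1, Angpt2, Tie1, Tek, Vegfb, Emcn and Eng have 1 probe each, so their values cannot be set against a further stretch of the transcript.

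The genes whose 3 differences from WT were most like those of Angpt1, Tie1 and Vegfa were sought among 14553 genes, by the root mean square distance on the log2 scale with probes of a gene averaged. For Angpt1 they were Tspan6, a tetraspanin, at 0.0906, Mon1b at 0.253 and Nme7 at 0.268, and 24 genes lay within 0.5. For Tie1 they were Gng11, a G protein gamma subunit, at 0.542, and the eosinophil ribonuclease genes Ear2 and Ear10 at 0.747 and 0.817, with 0 genes within 0.5, and the JAK2V617F difference of Tie1 in this measure is the bound. For Vegfa they were Vps37b at 0.0909, Cmpk2 at 0.166 and Ccdc32 at 0.170, with 22 within 0.5. With 4 arrays such likeness is a description.

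Other ligands and co-receptors of the same receptors were counted next, by gene. Over all genes, 15.9% were higher and 17.5% lower in TET2KD than in WT, 15.5% and 15.7% in JAK2V617F, and 15.4% and 16.6% in the double mutant. Of this list, 2 of 9 compared genes were higher and 3 lower in TET2KD, 2 and 4 of 11 in JAK2V617F, and 2 and 4 of 12 in the double mutant, with medians of -0.41, -0.74 and -0.41 against -0.05, -0.01 and -0.01 over all genes. Vegfc, a ligand of the receptor encoded by Flt4, was 6.5-fold lower in TET2KD and at least 13.5-fold and 13.3-fold lower in JAK2V617F and the double mutant. Angptl6, an angiopoietin-like factor, was 3.36-fold, 21.7-fold and 8.79-fold lower in TET2KD, JAK2V617F and the double mutant. Pgf, placental growth factor and a ligand of the Flt1 receptor, was 3.17-fold higher in TET2KD and 4.39-fold lower in the double mutant.

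Downstream of TEK and KDR, 3 of 32 signalling genes were higher and 6 lower in TET2KD, 4 and 3 of 31 in JAK2V617F, and 4 and 9 of 33 in the double mutant, with medians of -0.32, -0.25 and -0.62. Pik3ca, a catalytic subunit of PI3-kinase, was 3.34-fold, 5.10-fold and 4.02-fold lower in TET2KD, JAK2V617F and the double mutant. Dok2, an adaptor that binds TIE2, was 2.98-fold lower in JAK2V617F and 3.76-fold lower in the double mutant. Of the endoglin, BMP and ALK1 genes, 3 of 17 were higher and 1 lower in TET2KD, 3 and 1 of 16 in JAK2V617F, and 3 and 3 of 17 in the double mutant, with medians of 0.38, 0.14 and 0.42. Id1, a BMP target, was 5.66-fold higher in JAK2V617F, and Id3 2.45-fold higher there and 5.18-fold higher in the double mutant.

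Hypoxia genes were counted because Vegfa is one of their classic targets. In TET2KD, 8 of 26 were higher and 2 lower (median 0.26), in JAK2V617F 3 and 5 of 24 (median -0.26), and in the double mutant 5 and 2 of 26 (median 0.14). Ddit4, a stress-induced inhibitor of mTORC1, was 2.96-fold higher in TET2KD and 3.22-fold higher in JAK2V617F. Egln3, a prolyl hydroxylase induced by hypoxia, was 2.91-fold lower in TET2KD, and Bnip3l, a mitophagy receptor, was 2.34-fold lower in JAK2V617F. The list median was -0.09 in TET2KD over probes measured on both arrays, and -0.03 in the double mutant with the brightest probe of each gene.

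**Figure D4:**
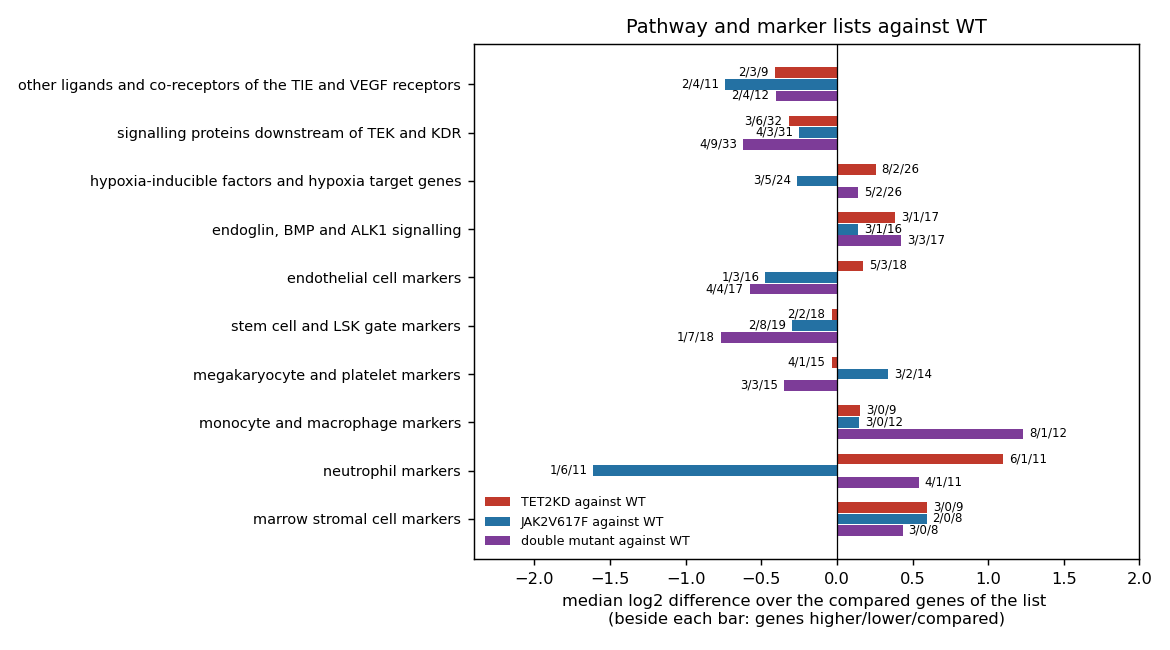
Median log2 difference from WT over the compared genes of 10 gene lists, for the TET2KD, JAK2V617F and double mutant arrays. The figures beside each bar count genes at least 2-fold higher, at least 2-fold lower and compared. The neutrophil list has the widest range, from -1.61 in JAK2V617F to 1.10 in TET2KD, which were -0.55 and 0.51 with normexp correction.

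Markers of endothelial cells, which express most of the set, were looked up for the whole list. Of 28 genes with a probe, 14 were measured in TET2KD, 13 in JAK2V617F, 15 in the double mutant and 15 in WT. Relative signals of the 36 probes, dim ones included, were averaged by gene and summed over the genes. The sums were 43.8, 29.0, 28.4 and 39.9 in that order. Cdh5, which encodes VE-cadherin and defines endothelial cells, was not well above background on any array, and Sox17 was measured in WT alone. Of 10 markers picked for endothelial cells, 6 were measured on each mutant array, against 8 in WT. Pecam1, Esam, Robo4, Plvap and Egfl7 were measured on all 4 arrays. Which cells these signals came from was not tested. Against WT, 5 of 18 were higher and 3 lower in TET2KD, 1 and 3 of 16 in JAK2V617F, and 4 and 4 of 17 in the double mutant, with medians of 0.17, -0.47 and -0.58. Egfl7, a secreted factor of endothelial cells that stem cells also express, was 2.68-fold, 4.30-fold and 3.94-fold lower in TET2KD, JAK2V617F and the double mutant, and Pecam1, which encodes CD31, was 3.71-fold higher in TET2KD and 2.87-fold higher in the double mutant.

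Stem cell and LSK gate genes had 2 of 18 higher and 2 lower in TET2KD, 2 and 8 of 19 in JAK2V617F, and 1 and 7 of 18 in the double mutant (medians -0.03, -0.29 and -0.77). Of 8 defining LSK markers, 7 were measured on every array, and Slamf1 on none. Marrow stromal genes, whose cells make ANGPT1 in the niche, had 3 of 9 higher in TET2KD, 2 of 8 in JAK2V617F and 3 of 8 in the double mutant, and 0 lower in each (medians 0.59, 0.59 and 0.43). With normexp correction the stromal medians were 0.21, 0.22 and 0.11. Over probes measured on both arrays they were 0.63, 0.31 and 0.42. Of 15 stromal genes with a probe, 9 were measured in TET2KD, 8 in JAK2V617F, 8 in the double mutant and 5 in WT. Genes not measured in WT were compared only where the mutant array measured them, so they could hardly be called lower. Cxcl12, the stromal chemokine, was at least 12.7-fold higher in TET2KD.

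Megakaryocyte genes had 4 of 15 higher and 1 lower in TET2KD, 3 and 2 of 14 in JAK2V617F, and 3 and 3 of 15 in the double mutant (medians -0.03, 0.34 and -0.35). Monocyte genes had 3 of 9 higher in TET2KD, 3 of 12 in JAK2V617F and 8 of 12 in the double mutant, with 0, 0 and 1 lower (medians 0.15, 0.15 and 1.23). The double mutant median of the monocyte genes was 0.49 with normexp correction and 0.71 over probes measured on both arrays. Neutrophil genes had 6 of 11 higher and 1 lower in TET2KD, 1 and 6 of 11 in JAK2V617F, and 4 and 1 of 11 in the double mutant (medians 1.10, -1.61 and 0.54). With normexp correction those medians were 0.51, -0.55 and 0.45, and over probes measured on both arrays the JAK2V617F median was -0.68. The part of these marker differences, and of the unequal weeks, in the values of the angiopoietin, TIE and VEGF genes was not tested.

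The labels were checked on Tet2 and on technical measures. On 2 Tet2 probes the TET2KD array had 27.3% and 56.3% of the WT signal. The JAK2V617F array had 73.1% and 105% on the same probes, and the double mutant array 60.3% and 61.6%. The third Tet2 probe was measured in the double mutant alone, at a relative signal of 0.293. It was not well above background in TET2KD (0.154), JAK2V617F (0.063) or WT (0.077). On this probe the double mutant thus lay above WT, opposite to the other 2 probes. The 75th percentile of the signal lay between 120 and 144 over the 4 arrays, 49.4% to 54.7% of spots were well above background, 0 spots were saturated, and repeated spots had an SD of 0.151 to 0.159 on the log2 scale.

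Upstream sequence was available for 8 of the 10 members from RefSeq (GRCm38.p6). The 250 bases before the start of Tie1 and Tek are shown because both receptor probes were lower on the arrays with JAK2V617F. Motifs were searched on both strands, in 32851 windows of the same length. The STAT motif TTCNNNGAA occurs in 7.02% of them. The hypoxia response core ACGTG occurs in 16.6%. The binding motif of GATA factors, GATAAG, occurs in 6.55%. The ETS core AGGAAG occurs in 29.5%. No 2 of these motifs contain each other. The Tie1 window, chr4:118489850-118490099 on the minus strand, holds 1 ETS core, shown in capitals on its opposite strand, and the Tek window, chr4:94739039-94739288 on the plus strand, holds none of the 4.
Tie1 upstream: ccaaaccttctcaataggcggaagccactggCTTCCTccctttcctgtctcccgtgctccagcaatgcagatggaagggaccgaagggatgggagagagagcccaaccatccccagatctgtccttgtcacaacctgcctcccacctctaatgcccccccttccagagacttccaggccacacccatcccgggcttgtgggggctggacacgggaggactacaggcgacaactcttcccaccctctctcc
Tek upstream: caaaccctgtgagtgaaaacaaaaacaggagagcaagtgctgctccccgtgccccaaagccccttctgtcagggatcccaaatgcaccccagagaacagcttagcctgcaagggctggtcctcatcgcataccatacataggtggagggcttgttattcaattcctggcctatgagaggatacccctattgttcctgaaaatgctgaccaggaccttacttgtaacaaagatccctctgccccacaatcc
Among the other windows, Eng, Emcn and Flt1 hold 2 ETS cores each, and the hypoxia core occurs once, before the downstream of the 2 Vegfa starts. In the direction of the gene that window lies past the upstream Vegfa start, and the window of the upstream start holds no hypoxia core. The STAT and GATA motifs were not found in any of the members' windows. A match is a description of these letters.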

How the data were processed

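LSK cells of 4 genotypes were measured on 1 one-colour Agilent array each. Per the labels' protocols, Trizol RNA went through NuGEN's Ovation Pico WTA amplification, and the cDNA was labelled with Cy3 by an enzymatic kit from Agilent. The authors read the intensity of each spot with Agilent Feature Extraction 10.7.3.1, and probe coordinates are on mm9, per the file headers. The processed signal was used, with the mean and background intensity for normexp alone. The deposited series matrix holds log2 values that equal the log2 processed signal shifted by 1 constant per array, with 0 of 55665 probes off by more than 0.001. Its column medians were -2.63 for TET2KD, -2.60 for JAK2V617F, -2.60 for the double mutant and -2.64 for WT. Slide and scan session were the same for all 4 arrays.

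Outlier spots (162 to 199 per array) and control spots were dropped. Signals were divided by the array's 75th percentile, spots of 1 probe were averaged on the log2 scale, and a side not well above background was set to the lowest measured signal of its array or its own signal if higher. A probe was compared where measured on at least 1 of the 2 arrays and called at 2-fold. For the grouping of arrays by lesion, dim sides were set to the highest of the 4 floors and both arrays of the higher pair had to be measured. Probes of 1 gene were averaged for gene lists. Array probes were named through a RefSeq gene table by accession (28026), symbol (3418) or synonym (295), and 23942 stayed unnamed. The steps used Python 3.11.15, numpy 2.4.6, pandas 2.3.3, R 4.3.3 and limma 3.58.1, and were tested on simulated data.

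The members, the 10 gene lists and the alternatives were chosen with earlier results of these data known. Every probe of the members is reported. From a list, up to 3 genes per comparison could be named, those with the largest difference measured on both arrays with all probes of 1 sign, and up to 2 measured on 1 array; marker genes at or near background, and the 3 genes most like Angpt1, Tie1 and Vegfa, could be named too. With 1 array per group no main result has a p-value. The alternatives were normexp correction (offset 50), scaling by quantiles or by the median of probes detected on all arrays, no floor, probes measured on both arrays, the series matrix, a 3-fold threshold and the brightest probe of each gene. A limma fit used additive lesion terms with 1 residual degree of freedom, adjusted by Benjamini-Hochberg. Not every probe sequence or marker gene is reported here.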

Additional observations from a re-analysis of the deposited data

Results flagged for a closer look

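The downstream Vegfa probe moved in opposite directions with a lesion depending on whether the other was present. The log2 difference of JAK2V617F from WT was 3.38, and that of the double mutant from TET2KD was -1.87. The difference of TET2KD from WT was 4.03, and that of the double mutant from JAK2V617F was -1.21. The difference between these effects was not tested, since each rests on 1 array per group. On the upstream Vegfa probe the double mutant lay above TET2KD by 0.39 and above JAK2V617F by 0.62. The change of direction was thus seen on the downstream probe alone.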

How the results depend on the processing

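Of 283 values of the member differences recomputed under the scaling, background, floor, filter and matrix alternatives, 243 moved by less than 0.225 on the log2 scale. That is the SD of a difference between a pair of repeated spots. Another 40 moved by more and 0 changed sign. Many values could move little. The series matrix and median scaling shift each array by 1 constant, and the floor and filter alternatives leave probes measured on both arrays unchanged. Of 24 differences called at 2-fold, 19 stayed past it under each of these alternatives that gave a value, and 5 did not, each with normexp: Vegfb in TET2KD against WT (0.82), Tek against WT in JAK2V617F (-0.51) and the double mutant (-0.56), the downstream Vegfa probe in the double mutant against JAK2V617F (-0.98), and Angpt2 in the double mutant against TET2KD (-0.91). Normexp also lowered the share of all probes called, to 6.99% higher and 7.71% lower in TET2KD, 6.45% and 6.47% in JAK2V617F, and 6.25% and 7.13% in the double mutant, each set against WT. Set against the single mutants, the double mutant shares were 4.15% and 4.74% (JAK2V617F) and 6.28% and 6.85% (TET2KD). With probes measured on both arrays, 3 member probes instead of 5 were called in JAK2V617F against WT, because Tie1 and Tek were not measured there. The limma fit of additive terms called 0 members for TET2KD (6 at 2-fold) and 0 for JAK2V617F (5 at 2-fold), with a smallest adjusted p among members of 0.935 and 0.799. Over all 37213 probes it called 0 for either term, with 1754 and 2273 at an unadjusted p under 0.05. It has 1 residual degree of freedom and assumes no interaction. Of the list medians, 253 of 300 values moved by less than 0.225 and 47 by more, and 13 took the opposite sign. Among those were the hypoxia list in TET2KD against WT (-0.09 with probes measured on both arrays) and in the double mutant against WT (-0.03 with the brightest probe per gene), the megakaryocyte list in TET2KD against WT (0.39 with the brightest probe), the endoglin list in the double mutant against JAK2V617F (-0.24 with the brightest probe) and the stromal list in the double mutant against TET2KD (0.24 with no floor). No paired analysis was possible because each group has 1 array, and for the same reason no array could be left out. Dim probes limit Tek, Angpt2, Emcn and Tie1, whose folds are bounds on at least 1 array.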
